A study of Mus musculus with 4 samples.

Results

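Lipid-associated macrophages are the Trem2-expressing, lipid-laden macrophages that gather in expanding fat. They were selected on the UMIs of 4 marker genes, by a gate: Trem2, Gpnmb, Atp6v0d2 and Fabp5 together made up at least 15 per 10,000 UMIs of the cell, Trem2 had at least 1 UMI, and Arg1 and the division genes Mki67 and Top2a had 0. A UMI is a molecular barcode that marks 1 captured transcript. The gate was applied to cells that had 500 UMIs or more, 300 genes or more and 10% mitochondrial UMIs or less, and 937 of 21388 such cells (4.38%) passed it. The values of the 4 gate genes chose these cells, so those values and every comparison of the members with other cells of the same library are given as descriptions, with no test. The study profiled single macrophages of perigonadal white adipose tissue, the visceral fat depot of the mouse, sorted as live CD45+Lin-CD11b+CD64+ cells. There were 4 libraries, 1 for each combination of genotype and diet: wild type on a high-fat diet (WT HFD), BLIMP1 conditional knockout on a high-fat diet (CKO HFD), wild type on a normal diet and knockout on a normal diet. Its title names BLIMP1, a transcriptional repressor encoded by Prdm1, as a regulator of how macrophages adapt to nutritional challenge. The sources used here do not give the strain, the age, the Cre driver, the deleted exons, the time on diet or how many animals went into a library, and WT and CKO are used as labelled.

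TREM2 is a lipid-sensing receptor that signals through the adaptor TYROBP and the kinase SYK, and macrophages that take up lipid from dying adipocytes depend on it for their programme. The cells import fatty acids, esterify and store cholesterol in droplets, and break down what they engulf in an enlarged lysosomal compartment acidified by a vacuolar proton pump. GPNMB is a lysosomal and surface glycoprotein, ATP6V0D2 a subunit of the proton pump found in macrophages and osteoclasts, and FABP5 a cytosolic fatty acid carrier. On GRCm38 (GENCODE annotation), Trem2 lies at chr17:48346401-48354147 (+ strand), Gpnmb at chr6:49036546-49070929 (+), Atp6v0d2 at chr4:19876841-19922605 (-) and Fabp5 at chr3:10012548-10016607 (+).

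MITF and its relatives TFEB and TFE3, which drive lysosomal genes, bind the E-box core CACGTG. The consensus site of AP-1 dimers is TGACTCA or TGAGTCA, and it was searched in the looser form TGANTCA, with any base in the middle. Each searched motif reads the same on both strands, and where the last letters of TGANTCA are the first of CACGTG the pair can overlap. Promoters of 300 bases (250 before to 50 after the RefSeq gene start, GRCm38.p6) were searched for both, and of 27025 genes 8.09% held CACGTG and 8.97% held TGANTCA. Of the gate genes, Trem2 and Gpnmb were matched and both promoters held TGANTCA. The middle base was A in Trem2, outside the AP-1 consensus, and C in Gpnmb. Atp6v0d2 and Fabp5 were not matched. CACGTG stood in 4 of the 9 matched cathepsin promoters, 4 of the 12 matched proton pump promoters, 6 of the 24 matched promoters of other lysosomal genes 1 of the 20 matched promoters of resident-macrophage genes and 1 of the 11 matched promoters of the 12 genes highest in members. TGANTCA stood in 4 of the 20 resident-macrophage promoters and in 1 of the 11. Of the 11 cathepsins, 9 were matched, and CACGTG stood in Ctsa, Ctsd, Ctsf and Ctsl. It was not found for Ctsb, Ctsk, Ctss or Ctsz. Like Ctsd and Ctsl, these were higher in members than in other macrophages of every library. How motif and level relate was not tested. The stretches below show the 2 gate genes and the cathepsins Ctsd and Ctsl, each 5′ to 3′ on the gene's strand with the motif in capitals. Ctsd holds a second CACGTG that starts 245 bases before the start and is not shown. A match is a description of letters, not a measured binding site.
Trem2, chr17:48346341-48346420 (+), TGANTCA starting 9 bases before the start: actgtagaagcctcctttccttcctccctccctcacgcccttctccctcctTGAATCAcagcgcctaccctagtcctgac
Gpnmb, chr6:49036458-49036537 (+), TGANTCA starting at transcribed base 9: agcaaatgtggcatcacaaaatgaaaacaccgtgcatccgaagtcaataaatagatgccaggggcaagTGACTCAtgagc
Ctsd, chr7:142387890-142387955 (-), CACGTG starting 98 bases before the start: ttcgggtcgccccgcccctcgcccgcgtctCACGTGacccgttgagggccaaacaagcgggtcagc
Ctsl, chr13:64370721-64370770 (-), CACGTG starting 236 bases before the start: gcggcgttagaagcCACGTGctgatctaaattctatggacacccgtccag

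The 4 libraries differed as a whole in ways that touch the members. Kept cells numbered 4650 (WT) and 8731 (CKO) on the high-fat diet and 3705 (WT) and 4302 (CKO) on the normal diet, with median depths of 14493, 3923, 4092 and 3939 UMIs. Members were deeper than the other macrophages of their own library, at medians of 17076, 6114, 7544 and 8586 UMIs against 12837, 3383, 3698 and 3373. The CKO HFD library stood apart in Gm42418, a locus that overlaps ribosomal RNA sequence, which took 0.586% of member UMIs there and 3.24 to 3.76% in the other libraries, and in cytoplasmic ribosomal protein genes, which took 20.3% against 13.6 to 14.8%. WT HFD lost 400 barcodes to the mitochondrial limit, against 7 to 23 elsewhere. Pairs of libraries shared 2 to 12 cell barcodes, which belonged to 0 to 2 members. With 1 library per group, genotype or diet cannot be told apart from the library. No test was made between groups, and the intervals given are 95% exact intervals that cover counting error only. The targeted gene did not separate the genotypes: Prdm1 stood at 23.0 (WT) and 36.3 (CKO) on the high-fat diet and 26.0 (WT) and 84.9 (CKO) on the normal diet (counts per 1000000 UMIs, CPM) in members, from 188, 108, 5 and 14 UMIs. All kept cells held it at 21.9, 22.9, 22.9 and 28.4 CPM. Reads from the 3′ end that lie outside a deleted part check nothing about a deletion.

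Lipid-associated macrophages were a feature of the high-fat libraries and made up a smaller share of the knockout library. They were 453 of 4650 cells in WT HFD (9.74%, interval 8.90 to 10.6%) and 443 of 8731 in CKO HFD (5.07%, 4.62 to 5.56%). Under normal diet they were 23 cells (0.621%) in WT and 18 cells (0.418%) in CKO. The share was 15.7 times as high on the high-fat diet in WT (10.3 to 25) and 12.1 times in CKO (7.58 to 20.7). The knockout share was 0.521 times that of WT under the high-fat diet (0.456 to 0.595) and 0.674 times under normal diet (0.343 to 1.31, an interval that spans 1). A gate on UMIs depends on depth, so every cell was also thinned to 2000 UMIs before gating. The shares were then 14.2% (WT) and 7.64% (CKO) on the high-fat diet and 0.957% (WT) and 0.747% (CKO) on the normal diet, in the same order. Thinning left out cells with fewer than 2000 UMIs: 67 (WT) and 1076 (CKO) on the high-fat diet, 675 and 820 on the normal diet, of which 7, 12, 3 and 3 were members. Of the 652 and 585 cells gated in the thinned WT HFD and CKO HFD libraries, 335 and 351 were members at full depth. Thinning also removes UMIs of Arg1, Mki67 and Top2a, so cells kept out by those genes at full depth can pass. With Arg1-positive and dividing cells let in, the shares were 15.9% (WT HFD) and 7.30% (CKO HFD) at full depth. After thinning they were 16.5% and 9.16%.

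**Figure D1:**
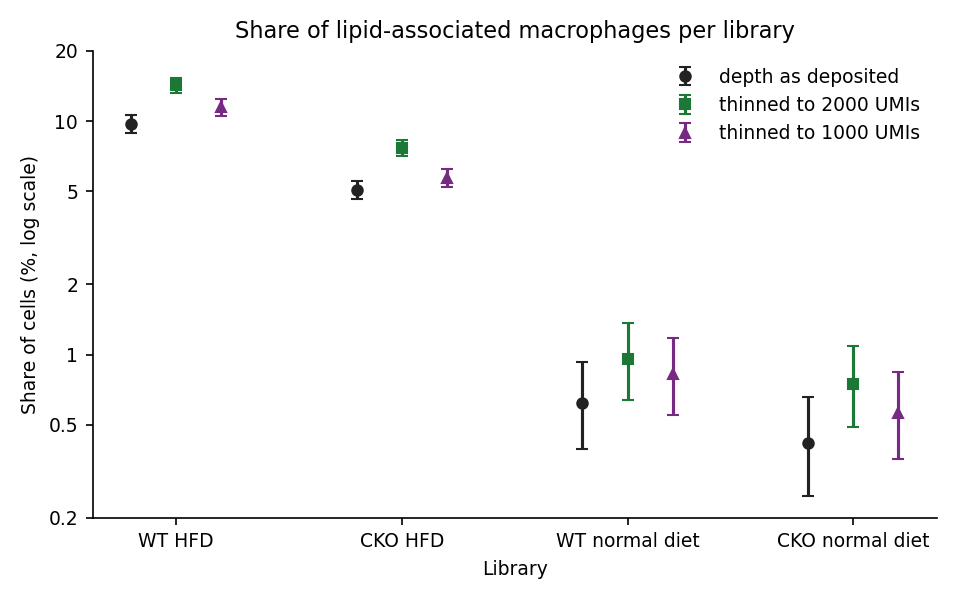
Lipid-associated macrophages as a percentage of kept cells (vertical log axis) in each library (horizontal axis), with the depth as deposited and after thinning every cell to 2000 or 1000 UMIs; bars are 95% exact binomial intervals that cover counting error only. WT HFD lies highest at each depth (9.74% with the depth as deposited), CKO HFD next (5.07%), and both normal-diet libraries lie under 1%.

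The gate cut through a continuum. Its level ran from the threshold of 15 to 189 per 10,000 UMIs in WT HFD members (median 29.5) and to 198 in CKO HFD (28.3), and from 15.4 to 81.3 (21.5) and 15.9 to 90.2 (25.9) on the normal diet in WT and CKO. Just inside the threshold, at 15 to 20, lay 111, 116, 9 and 5 members in that order of libraries, and just outside it, at 10 to 15, lay 160, 240, 12 and 23 cells. All 4 gate genes were detected in 63.4% of WT HFD members and 33.0% of the shallower CKO HFD members. Cells with Trem2 or no gate UMI at all, and without Arg1, Mki67 and Top2a, were put into 8 bins of the gate level. Summed lists of genes outside the gate changed across 15 without a jump. In WT HFD, the 29 further genes of the lipid-associated list, which include Lgals3, Cd9, Lpl and Spp1, made up 128 of 10,000 UMIs in cells with no gate UMI, 358 at levels of 10 to 15, 437 at 15 to 20 and 740 at 60 and over. In CKO HFD the same 4 bins held 154, 290, 303 and 617. Lgals3, a galectin of phagocytes, went from 1071 to 12970 CPM between the lowest and the highest bin in WT HFD, and Ctsd, the main lysosomal aspartic protease, from 322 to 3848 CPM. Spp1 was less even, at 34.6 CPM in the 10 to 15 bin and 96.3 in the 15 to 20 bin of WT HFD, and at 68.1, 256 and 88.5 CPM in the bins from 10 to 30 of CKO HFD. Scavenger receptor Cd163 went the other way, from 193 to 8.06 CPM in WT HFD and from 404 to 28.6 CPM in CKO HFD.

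**Figure D2:**
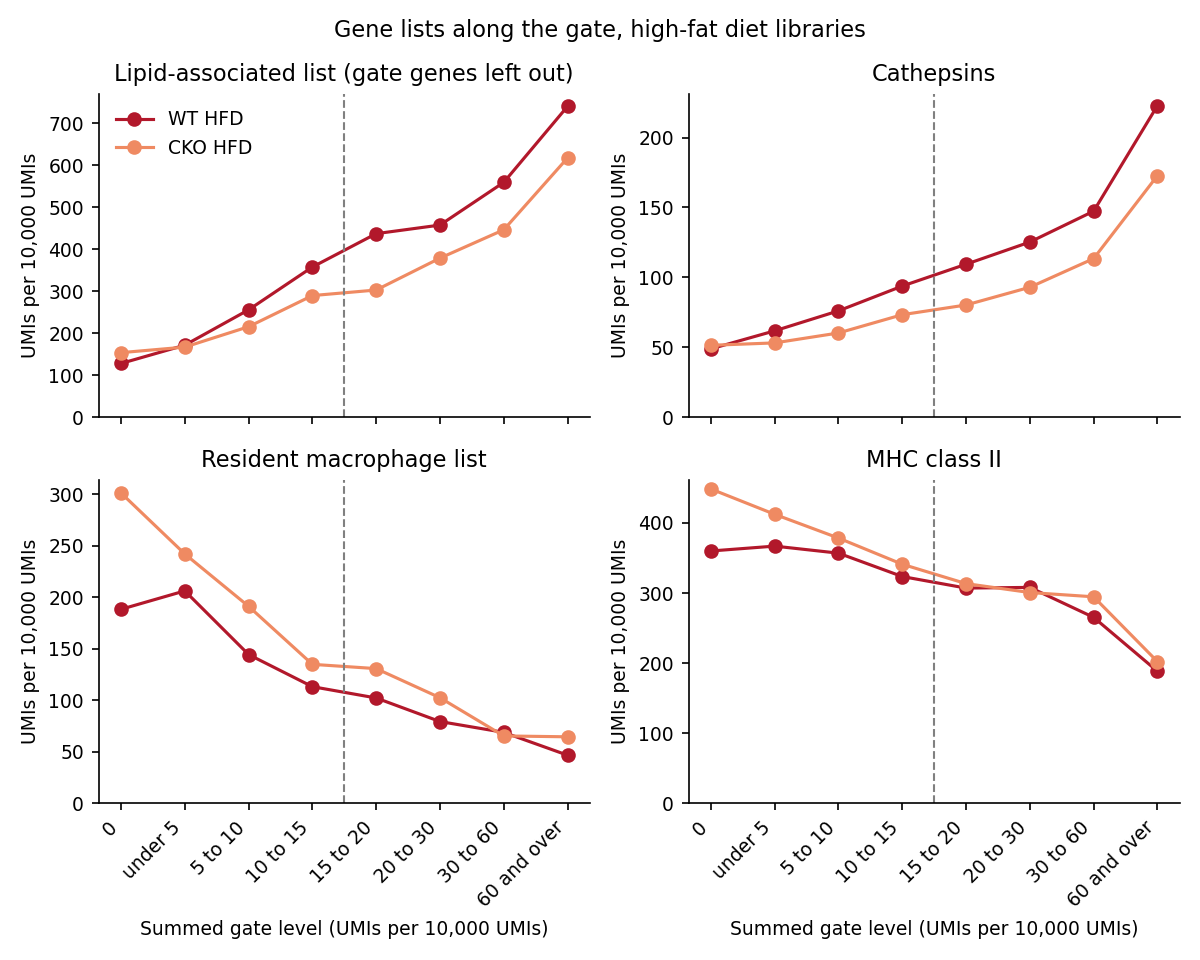
Summed UMIs per 10,000 (vertical axis) of gene lists not used by the gate, in 8 bins of the gate level (horizontal axis), 1 panel per list, for WT HFD and CKO HFD; the dashed line marks the threshold of 15 per 10,000. In WT HFD the lipid-associated list climbs from 128 to 740 and in CKO HFD from 154 to 617, the cathepsins climb too, the resident and MHC class II lists decline, and no list jumps at the threshold.

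The 4 gate genes differed among the libraries in how they made up the gate. Trem2, the receptor, stood at 1192 (WT) and 1229 (CKO) on the high-fat diet and 915 (WT) and 946 (CKO) on the normal diet (CPM), a narrow range. Fabp5 stood at 1765 (WT) and 2147 (CKO) on the high-fat diet and 1373 (WT) and 1849 (CKO) on the normal diet. Gpnmb stood at 967 (WT) and 634 (CKO) on the high-fat diet and 723 (WT) and 667 (CKO) on the normal diet, and Atp6v0d2 at 477 (WT) and 207 (CKO) on the high-fat diet and 395 (WT) and 485 (CKO) on the normal diet. In CKO HFD members Atp6v0d2 was at 0.433 times WT HFD, Gpnmb at 0.656 times and Trem2 at 1.03 times, values that the gate itself used. The cells outside the gate gave other ratios for the same libraries: 0.633 for Trem2, 0.429 for Gpnmb, 0.433 for Atp6v0d2 and 0.850 for Fabp5 in other macrophages, against 1.22 for Fabp5 in members. Other macrophages are kept cells outside the gate with C1qa, C1qb and C1qc together at 10 or more per 10,000 UMIs and no Arg1, Mki67 or Top2a.

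Members carried the wider lipid-associated programme beside the gate genes. Genes were compared with the other macrophages of the same library where the higher side had at least 20 CPM and 20 UMIs, and 7.35% of 5865 genes (WT) and 7.49% of 5377 (CKO) on the high-fat diet, and 10.1% of 4700 (WT) and 9.21% of 4583 (CKO) on the normal diet, were more than 1.5-fold higher in members. In the lipid-associated list, 27 of 29, 26 of 29, 24 of 26 and 23 of 26 measured genes were higher. The list's median log2 ratios were 1.85, 1.79, 2.03 and 1.71, beside medians of -0.11, -0.11, -0.51 and -0.54 over all genes. In the normal-diet libraries the few member UMIs make it easier for a gene to enter on the other macrophages' side than on the members'. Among the list's genes that were not higher, Npl, a sialic acid lyase, was lower in every library. Its levels were 0.478, 0.400, 0.323 and 0.151 times the other macrophages (WT then CKO on the high-fat diet, WT then CKO on the normal diet, the order used from here on). With edgeR's TMM scaling, which moved the median of all genes to 0.02 and 0.00 in the high-fat libraries, the higher genes made up 43.8% of all genes past 1.5-fold in WT HFD in place of 27.6%, and 43.7% in CKO HFD in place of 28.2%.

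Among the genes that stood highest in members of all 4 libraries, several act on matrix and in the osteoclast. Ctsk, a collagen-degrading cathepsin typical of osteoclasts, was at 159 (WT) and 120.3 (CKO) on the high-fat diet and 218 (WT) and 212 (CKO) on the normal diet, in CPM, against 3.40, 2.78, 4.27 and 2.30 in other macrophages. Members and other macrophages were far apart in each library, at ratios of 46.7, 43.2, 51.2 and 92.1. Mmp12, the macrophage elastase, was at 435, 539, 754 and 1067 CPM, or 6.43, 10.4, 6.82 and 28.5 times the other macrophages. Most Mmp12 UMIs of the CKO normal-diet members came from the deepest member, as given further on. Spp1, which encodes osteopontin, was at 238, 232, 46.8 and 564 CPM, with the lowest and the highest value in the normal-diet libraries, whose member counts rest on 9 and 93 UMIs. The tetraspanin Cd9 varied far less, at 446, 446, 312 and 503 CPM and 7.45, 6.95, 4.92 and 10.2 times the other macrophages. Syngr1, Il7r, Lhfpl2, F7 and Rnf128 were the other genes of this set outside the lipid and lysosomal lists, with ratios from 7.14 to 68.4. Acp5, the tartrate-resistant phosphatase of osteoclasts, was at 5.28, 4.57, 10.4 and 10.3 times the other macrophages. For the osteoclast fusion gene Ocstamp only the level in members is given, at 3.43, 4.03, 26.0 and 12.1 CPM.

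Single cells carried these genes unevenly. At 2000 UMIs a cell, Spp1 was seen in 13.7% of 446 WT HFD members and 11.8% of 431 CKO HFD members, against 1.84% and 1.29% of other macrophages. Mmp12 was seen in 23.5% and 22.3% of members, against 5.10% and 2.97%. Before thinning, Spp1 was seen in 34.1% and 22.3% of members and Mmp12 in 39.2% and 29.2%, at median depths of 17179 and 6214 UMIs. In cells of a fibroblast gate, which should lack both, neither gene was seen in 47 WT HFD cells or 56 CKO HFD cells (median depths before thinning 16118 and 3699 UMIs), which allows up to 7.55% and 6.38%. Cd9 was seen in 46.4% and 41.8% of members, but also in 44.7% and 51.8% of the fibroblast-gate cells. The lipid-associated list summed to a median of 103 of 2000 UMIs in WT HFD members, with quartiles of 80.3 and 131, and to 84 in CKO HFD members, with quartiles of 61 and 108, where other macrophages had medians of 33 and 30.

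Lipid handling genes were higher from uptake to storage. Of the fatty acid list, 12 of 21, 13 of 21, 10 of 17 and 10 of 13 measured genes were more than 1.5-fold higher than in other macrophages. Lpl, the lipase that releases fatty acids from lipoproteins, stood at 3951 (WT) and 2511 (CKO) on the high-fat diet and 3547 (WT) and 3456 (CKO) on the normal diet, in CPM. CKO HFD was the low library, as it was in other macrophages (1097, 661, 1394 and 999). Fabp4, a fatty acid carrier shared with adipocytes, stood at 1089.7, 1698, 520.0 and 412 CPM, with both high-fat libraries above both normal-diet libraries. Plin2, which coats lipid droplets, stood at 2563, 1480.3, 1477 and 661, and Hilpda, which restrains lipolysis at the droplet, at 267, 456, 198 and 158. Soat1, the enzyme that esterifies cholesterol, was at 2.65, 3.22, 2.87 and 2.94 times the other macrophages and Lipa, the lysosomal acid lipase, at 3.41, 3.76, 4.61 and 2.87 times. Nr1h3, which encodes the sterol receptor LXR alpha, was at 4.43, 3.80, 7.59 and 3.21 times and its target Abcg1 at 1.88, 2.87, 2.47 and 2.74 times, but the exporter Abca1 was at 0.781, 0.639, 0.853 and 0.996 times. Of the whole export list, 4 of 14, 5 of 13, 5 of 11 and 4 of 9 measured genes were higher and 3, 2, 5 and 2 lower, where 7.35%, 7.49%, 10.1% and 9.21% of all genes were higher and 19.2%, 19.1%, 45.4% and 47.6% lower.

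The lysosomal genes were not uniform, and the cathepsins themselves split. Among the 11 cathepsins, Ctsb, Ctsd, Ctsk, Ctsl, Ctss and Ctsz were more than 1.5-fold higher in each library. Ctsc, which activates granule serine proteases, was at 0.318, 0.375, 0.457 and 0.224 times the other macrophages. Ctsl, a cysteine protease, stood at 2089 (WT) and 1032 (CKO) on the high-fat diet and 962 (WT) and 1109 (CKO) on the normal diet, in CPM, highest in WT HFD, and Ctsd at 2516, 1734, 2595 and 2922 CPM, lowest in CKO HFD. Proton pump subunits were higher in 11 of 16, 10 of 16, 10 of 15 and 12 of 16 measured genes. Over all genes the higher shares were 7.35%, 7.49%, 10.1% and 9.21%. The other lysosomal membrane proteins and hydrolases were less uniform, with 8 of 27, 5 of 27, 10 of 25 and 5 of 25 higher. Cd63, Cd68, Gla, Lipa and Psap were the ones higher in all 4. Of the MITF and TFE factors, Mitf itself stood at 323 (WT) and 89.0 (CKO) on the high-fat diet and 276 (WT) and 285 (CKO) on the normal diet, in CPM, and at 1.62, 1.21, 1.11 and 1.13 times the other macrophages, past 1.5-fold in WT HFD. Downstream of TREM2, Tyrobp was at 1.81, 1.72, 3.20 and 2.69 times the other macrophages, the kinase Syk at 0.953, 0.947, 1.08 and 0.975 times and the opposing phosphatase Inpp5d at 0.555, 0.613, 0.576 and 0.530 times.

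**Figure D3:**
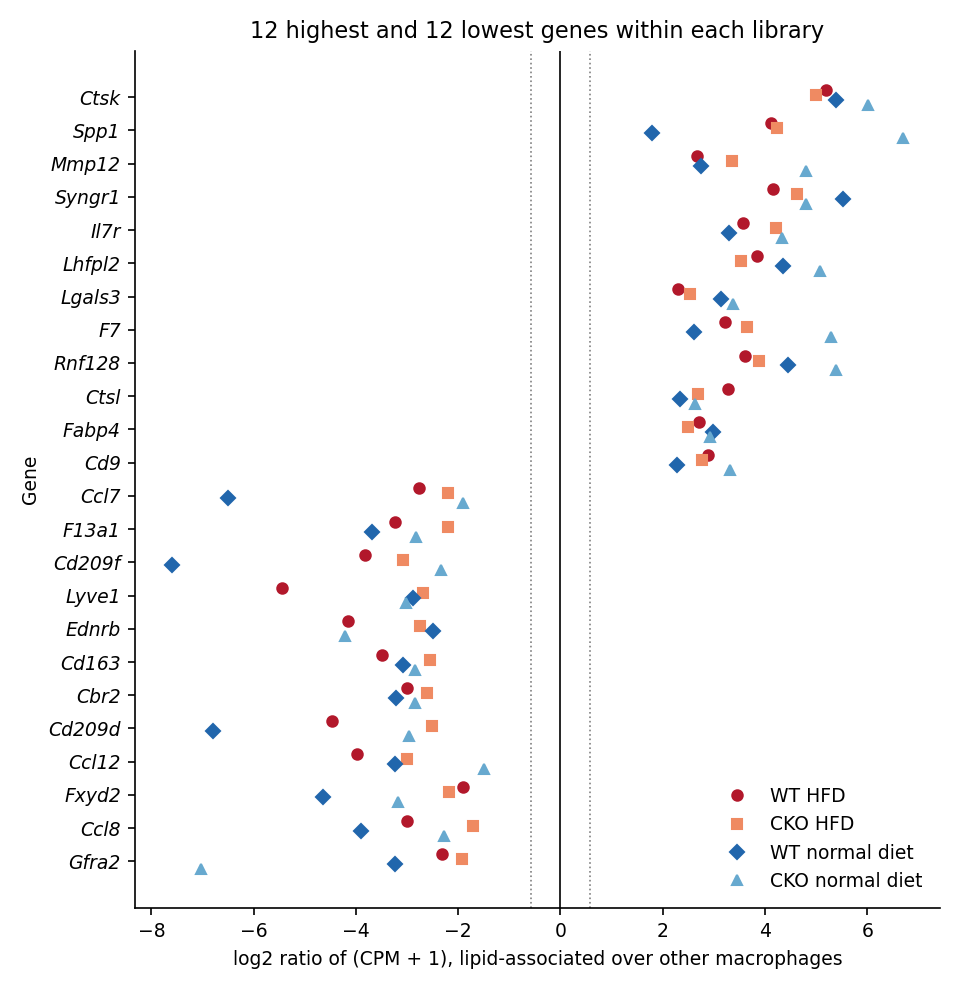
Log2 ratio of (CPM + 1) in members over other macrophages of the same library (horizontal axis) for the 12 highest and 12 lowest genes by the mean over the 4 libraries (vertical axis); symbols are libraries, the solid line marks 0 and the dotted lines 1.5-fold. The spread among libraries is wide for Spp1 (ratios 3.63 to 127) and narrow for Fabp4 (5.68 to 7.99).

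Genes of resident tissue macrophages were low in members. In the 4 libraries 19.2%, 19.1%, 45.4% and 47.6% of measured genes were more than 1.5-fold lower than in other macrophages, and 19 of 22, 20 of 22, 20 of 23 and 21 of 23 resident-macrophage genes were. None was higher. With 20 UMIs expected on both sides, the normal-diet libraries gave 352 genes higher and 443 lower of 1619 in WT and 283 and 405 of 1397 in CKO, so their excess of lower genes depends on the minimum. The list's medians were -2.06, -1.80, -2.17 and -1.97 on the log2 scale. Lyve1, a hyaluronan receptor of perivascular macrophages, stood at 1.35 (WT) and 25.5 (CKO) on the high-fat diet and 26.0 (WT) and 36.4 (CKO) on the normal diet, in CPM in members against 102, 169, 198 and 303 in other macrophages. The WT HFD members were the low end, with 11 UMIs among 453 cells. F13a1, the coagulation factor subunit made by resident macrophages, was at 0.106, 0.217, 0.0775 and 0.142 times the other macrophages, Cd163 at 0.0840, 0.167, 0.116 and 0.138 times, and Cd209d and Cd209f, lectins of the same cells, at 0.0273 and 0.0537 times in WT HFD. The monocyte-attracting chemokines Ccl7, Ccl8 and Ccl12 were also among the lowest genes. Igf1, a growth factor made by macrophages, was closer to the other macrophages, at 0.608, 0.490, 1.06 and 0.908 times.

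Antigen presentation, alternative activation and early response genes also included lower ones. MHC class II genes were past 1.5-fold lower in 2 of 7, 5 of 7, 6 of 8 and 8 of 8 measured genes, where the shares over all genes are the 19.2%, 19.1%, 45.4% and 47.6% above. For the invariant chain gene Cd74 the ratio was 0.737, 0.632, 0.503 and 0.542. Of the alternative activation list 6 of 7, 6 of 8, 7 of 7 and 7 of 7 measured genes were lower and 0, 1, 0 and 0 higher. Retnla, one of its markers, was at 0.189, 0.256, 0.0763 and 0.379 times and Mrc1, the mannose receptor, at 0.226, 0.280, 0.179 and 0.174 times. Ccr2, the receptor that brings monocytes into fat, was at 0.206, 0.480, 0.203 and 0.311 times. The early genes that tissue dissociation is known to induce were lower in 12 of 18, 14 of 18, 15 of 17 and 14 of 16, with Egr1 at 0.288, 0.325, 0.178 and 0.173 times. How that difference bears on the other lists was not tested. Oxidative phosphorylation genes were past 1.5-fold higher in 0 of 29 in both high-fat libraries, and in 18 of 27 and 11 of 27 in the normal-diet libraries. Of all genes, 7.35%, 7.49%, 10.1% and 9.21% were higher. The same rule chose members and other macrophages in both high-fat libraries, so shared directions are a description. Of 5209 genes measured in both, 293 were higher and 706 lower in both, and 1 went in opposite directions.

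The defining macrophage genes were present in the members of every library. In cells thinned to 2000 UMIs, the macrophage list had medians of 17, 13, 16 and 14 UMIs in members. Other macrophages had 20, 27, 12 and 14. The list includes C1qa, C1qb and C1qc, which chose the other macrophages. Adgre1, which encodes F4/80, stood at 398 (WT) and 305 (CKO) on the high-fat diet and 447 (WT) and 339 (CKO) on the normal diet, in CPM, and Csf1r, the growth factor receptor of the lineage, at 377, 384, 458 and 230.4. Fcgr1, which encodes the CD64 of the sort, stood at 127, 109, 88.4 and 18.2, from 3 UMIs in CKO normal diet. The summed complement genes C1qa, C1qb and C1qc were below 10 per 10,000 UMIs in 67, 97, 4 and 2 members. In these C1q-low members of WT HFD, 7.65% of 5620 genes were more than 1.5-fold higher than in the other members and 6.09% lower, with 11 of 17 resident-macrophage genes among the lower. In CKO HFD 5.93% of 4386 genes were higher and 14.9% lower, with 17 of 19 resident-macrophage genes lower. The lipid-associated list differed little, with medians of -0.08 and 0.16 on the log2 scale. Mfge8, which bridges dying cells to phagocytes, was at 0.0448 and 0.215 times the other members. Marker sums of several other cell types stayed low in members: for T and NK cells they were at most 0.490 CPM, for mast cells 0, for mesothelial cells at most 0.122, for fibroblasts 5.20 to 12.4, for endothelial cells 5.20 to 11.6, for B cells 6.06 to 13.1, for adipocytes 0 to 72.8, for neutrophils 26.9 to 54.6 and for dendritic cells 46.4 to 88.4. No member met the fibroblast gate. The classical monocyte list was not low in this way. Its medians in members were 8, 18, 7.5 and 9 UMIs in cells thinned to 2000 UMIs. Other macrophages had medians of 12, 20, 8 and 9.

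In WT HFD the members were close to the cells that met the same markers but were kept out by Arg1 or by division genes. In WT HFD, 118 non-dividing Arg1-positive cells passed the 4-gene condition, and 2.12% of 5554 genes were more than 1.5-fold higher in members and 2.30% lower. In CKO HFD there were 133 such cells, and 8.81% of 4838 genes were higher in members and 7.34% lower. Against other macrophages of CKO HFD the shares were 7.49% and 19.1%. Genes with a whole counting interval past 1.5-fold were 1.3% and 0.93% against the Arg1-positive cells, and 4.74% and 9.13% against other macrophages. Over the Arg1-positive cells of CKO HFD, resident-macrophage genes were higher in members in 12 of 19 measured genes (median 0.81 on the log2 scale). Lower were 8 of 14 matrix and growth factor genes, 6 of 10 cholesterol synthesis genes and 6 of 8 hypoxia genes. Ctsk was again higher in members, at 1.65 times in WT HFD and 1.68 in CKO HFD, and Mmp12 at 2.30 and 4.26 times. Against the 168 dividing cells of WT HFD, 0.764% of 5756 genes were higher in members and 5.91% lower, among them all 18 measured division genes. Against the 61 dividing cells of CKO HFD the shares were 6.31% and 10.3% of 4551, with all 16 division genes lower. Mki67 and Top2a chose those cells, so the division genes are part of the rule.

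Between the high-fat libraries, CKO members held more monocyte-type and chemokine transcripts and fewer cholesterol export transcripts than WT members. Of 5387 genes, 6.81% were more than 1.5-fold higher and 21.3% lower in CKO members, and the median log2 ratio was -0.23. In other macrophages the same libraries gave 6.25% and 21% of 5789, with a median of -0.21. With TMM scaling, which set the members' median at -0.05, 654 genes were higher and 737 lower. When each member ratio was divided by that of other macrophages, 138 genes were higher and 100 lower. So for 238 of 5387 genes the CKO over WT ratio of members was more than 1.5-fold away from that of other macrophages.

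The genes that stood highest in CKO HFD members include Ifitm3, Ly6e, chemokines and monocyte genes. Ifitm3, a membrane protein that blocks viral entry, stood at 290.1 CPM in WT HFD members and 1559.6 in CKO HFD members, a ratio of 5.38 (5.12 to 5.65) beside 2.95 in other macrophages. Ly6e, an interferon-inducible surface protein, was at 5.32 (4.28 to 6.63) times beside 2.14. The interferon list as a whole had 1 of 3 measured genes higher, with a median log2 ratio of 0.39, below the 0.64 of other macrophages, where 3 of 5 were higher. Ccl12 and Ccl7, ligands of CCR2, were at 6.19 and 3.24 times beside 2.89 and 2.16. All 8 measured genes of the classical monocyte list were higher (median 1.60 on the log2 scale, beside 0.95 and 5 of 8 in other macrophages), among them Plac8 at 9.42 times and S100a6 at 2.56 times. Chemokines were higher in 8 of 14, and in 8 of 15 outside the gate. Ly6c2, the surface marker of classical monocytes, was at 2.08 and 9.74 CPM in members. The part of monocyte-type cells in these ratios was not tested. Oxidative phosphorylation genes were higher in 15 of 29 both inside and outside the gate, and relative to other macrophages the median of the list was -0.02.

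In the summed counts, resident-macrophage genes were also higher in CKO HFD members in 7 of 19 measured genes, from low levels. The typical cell did not hold more of them. At 2000 UMIs a cell the list had a median of 8 UMIs in CKO HFD members and 11 in WT HFD members. The 95th percentiles were 66 and 39.8 UMIs. Lyve1 was at 19.0 (10.0 to 39.6) times beside 1.67, Cd163 at 4.14 (3.27 to 5.25) beside 2.08 and Ccl8 at 2.07 beside 0.824. Ccl8 was lower in cells gated after thinning, at a log2 ratio of -1.10. Selenop, a selenium carrier, went the other way, at 0.641 (0.617 to 0.666) times in members and 1.30 outside the gate. In the lipid-associated list 3 of 28 genes were higher and 8 lower (median -0.47, -0.29 in other macrophages and -0.24 in members relative to all genes), where 6.81% and 21.3% of all genes were higher and lower. Itgax, the integrin CD11c, was higher at 1.86 (1.67 to 2.07) times. Apoe, the lipid carrier that takes up exported cholesterol, stood at 12495 CPM in WT HFD and 7927 in CKO HFD members, at 0.634 (0.626 to 0.644) times beside 0.933 in other macrophages. Ctsl was at 0.494 (0.475 to 0.513) times beside 0.738, and the fatty acid translocase Cd36 at 0.712 (0.688 to 0.737) beside 1.03. Lpl, Plin2 and the cholesterol ester hydrolase Nceh1 were at 0.635, 0.578 and 0.466 times and similar outside it, at 0.603, 0.568 and 0.419. The cholesterol synthesis list had 0 of 9 genes higher and 1 lower, with a median of -0.13. In the cholesterol export list 0 of 11 genes were higher and 5 lower (median -0.53, and -0.28 in other macrophages), with Pparg, a lipid-sensing nuclear receptor, at 0.398 beside 0.265.

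The lowest genes in CKO HFD members were also low outside the gate. Cmss1, Cdk8, Camk1d, Gphn and Lars2 were at 0.0815, 0.125, 0.147, 0.161 and 0.181 times WT HFD, beside 0.0833, 0.153, 0.183, 0.183 and 0.173 in other macrophages. They moved with Gm42418, whose share in the 2 libraries is given above, and its part in the results was not tested. Mitf was at 0.275 (0.242 to 0.313) times beside 0.368, the nuclear RNA Neat1 at 0.193 beside 0.167 and the anti-inflammatory cytokine Il10 at 0.304 beside 0.365. Prdm1 was higher rather than lower in CKO members, at 1.58 (1.23 to 2.01) times beside 0.865.

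**Figure D4:**
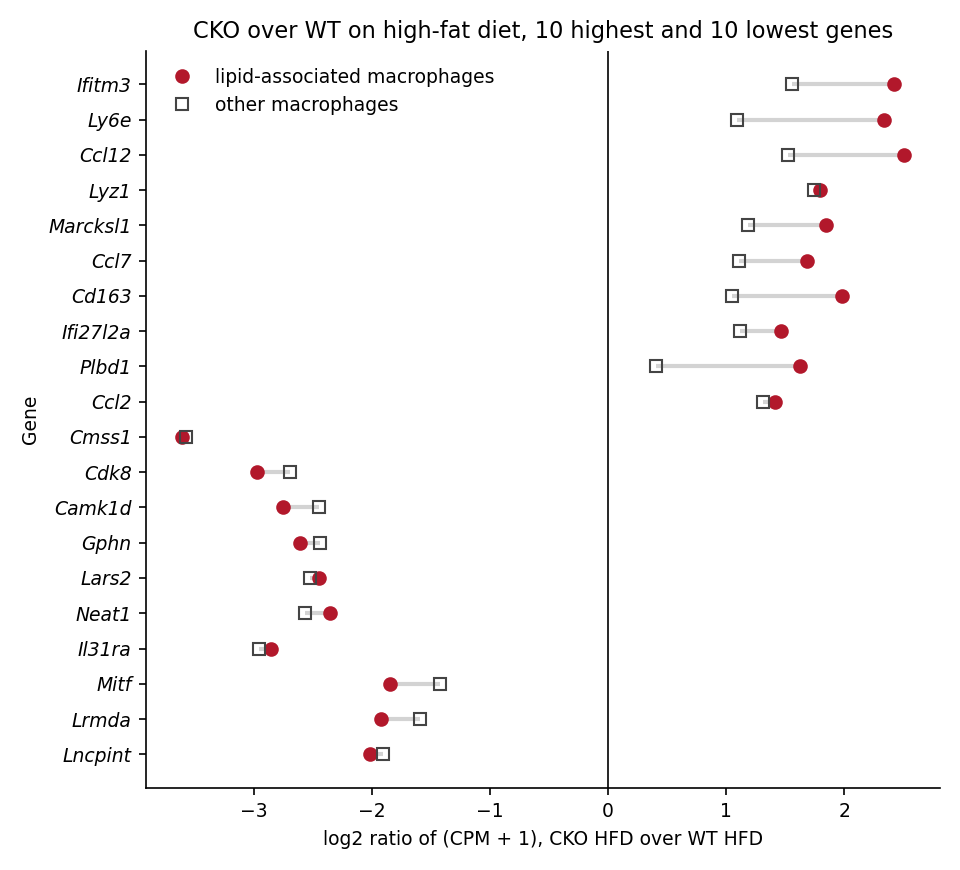
Log2 ratio of (CPM + 1) in CKO HFD over WT HFD (horizontal axis) for the 10 highest and 10 lowest genes of the members (vertical axis); filled circles are lipid-associated macrophages and open squares other macrophages of the same libraries. Circles and squares nearly coincide for Cmss1 (ratios 0.0815 and 0.0833) and lie apart for Ly6e (5.32 and 2.14) and Plbd1 (3.15 and 1.33).

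Diet comparisons of the members rest on 23 and 18 normal-diet cells. In WT, 26.3% of 3436 genes were more than 1.5-fold higher on the high-fat diet and 11.2% lower. In CKO the shares were 30.9% and 18.8% of 2683. TMM scaling made the higher genes 89.6% of those past 1.5-fold in WT in place of 70.1%, and 88.0% in CKO in place of 62.2%, and moved the median of all genes from 0.22 to 0.40 and from 0.25 to 0.57. A filter that asks for 20 expected UMIs on both sides, chosen after seeing the data, turned the balance. It gave 148 higher and 222 lower in WT and 258 and 292 in CKO. Thinning to 2000 UMIs moved the balance the other way, to 1462 higher and 92 lower in WT and 1203 and 92 in CKO. So did a minimum of 50 CPM and 50 UMIs, with 410 and 91 in WT and 485 and 95 in CKO. The gate genes, whose values chose the members, stayed within 1.5-fold but for Atp6v0d2 at 0.426 times in CKO. MHC class II genes were higher on the high-fat diet in 5 of 7 in WT and 7 of 7 in CKO: Cd74 stood at 11984 (WT) and 12372 (CKO) on the high-fat diet and 4654 (WT) and 4444 (CKO) on the normal diet, in CPM, with both high-fat libraries above both normal-diet libraries. The list was higher outside the gate too. Its median log2 ratios were 0.76 (WT) and 1.20 (CKO) in members and 0.44 and 0.67 in other macrophages. Over all genes, other macrophages had medians of -0.25 and -0.53. Fabp4 was 4.12 times as high in CKO and 2.10 times in WT, less than in other macrophages, where it was 5.57 and 2.56 times as high. Abca1 was lower, at 0.377 (0.296 to 0.488) times in WT and 0.170 (0.130 to 0.226) in CKO, with 0.412 and 0.265 in other macrophages.

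Within normal diet, 14.5% of 1738 genes were more than 1.5-fold higher in CKO than in WT members and 15% lower, where other macrophages gave 0.37% and 0.756% of 6220. Few cells carried these values. Without the deepest member of each library 161 genes were higher and 208 lower of 1444, and in all members 45 and 19 genes had a whole counting interval past 1.5-fold. The deepest CKO member held 26054 of 164954 UMIs (15.8%) and the deepest WT member 23699 of 192301 (12.3%), against under 1% in the high-fat libraries, and 5 and 6 cells held 50% of the UMIs. The highest genes in CKO members were Spp1 at 12 (6.08 to 27.2) times, Retnla at 7.02 (5.89 to 8.40), Esd at 4.93 (3.31 to 7.54), Psma5 at 4.29 (2.56 to 7.55) and Txnrd1 at 4.03 (2.48 to 6.80). The deepest cell held 75.6% of the Esd UMIs, 68.6% of those of Psma5, a proteasome subunit, 61.8% of those of Txnrd1, a thioredoxin reductase, and 61.4% of those of the peroxidase Prdx1. Without the deepest member of each of the 2 libraries, the log2 ratios went from 2.29 to 0.63 for Esd, 2.09 to 0.73 for Psma5, 2.00 to 0.74 for Txnrd1, 1.81 to 0.62 for Prdx1 and 1.57 to -0.15 for Hsp90aa1. The deepest CKO member also held 62.5% of the library's Mmp12 UMIs in members and 84.0% of those of the autophagy adaptor Sqstm1. Of the NRF2 target list, which answers oxidative stress, 6 of 7 measured genes were higher in CKO members, with a median log2 ratio of 1.81 that was -0.05 without those 2 cells. Retnla and Fn1 differed little without them, at 2.87 from 2.81 and 2.00 from 1.95 on the log2 scale. Spp1 was at 3.27 without them, but another cell held 62.4% of its UMIs. At the lower end, the lectin Clec10a was at 0.169 (0.0808 to 0.319) times, Selenop at 0.297 (0.242 to 0.363) and Plin2 at 0.447 (0.355 to 0.560), beside 1.02, 1.07 and 0.594 in other macrophages.

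**Figure D5:**
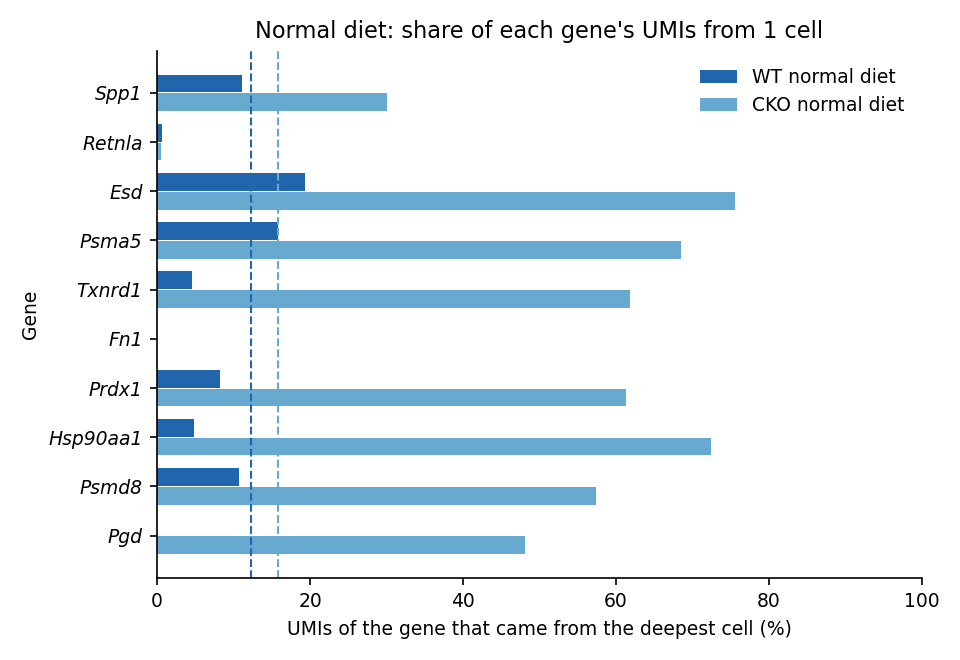
Percentage of each gene's member UMIs that came from the deepest member of the library (horizontal axis) for the 10 genes highest in CKO over WT normal-diet members (vertical axis); bars are the 2 normal-diet libraries and dashed lines the deepest member's share of all member UMIs (12.3% in WT and 15.8% in CKO). The CKO bar reaches 75.6% for Esd, and 0 for Fn1.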

How the data were processed

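Single-cell 3′ libraries (10x Genomics) of sorted fat macrophages were analysed from the deposited UMI counts per gene and cell barcode, made with Cell Ranger 7.0.0 per the file headers on GRCm38 per the submitters' processing notes; the handling of intron reads is not stated in the sources used here. Counts of members or other macrophages were summed within a library and scaled to counts per 1000000 UMIs (CPM). Ratios carry exact conditional binomial intervals, shares Clopper-Pearson intervals and log2 ratios use CPM + 1, with a gene measured at 20 CPM and 20 UMIs or more on the higher side. Cells of 1 library are not replicates, so no test was made between the 4 groups of 1 library each. Nothing was removed as a doublet: Scrublet in scanpy 1.11.5 called 0 cells in every library, and an alternative removed its top scores (0.8% per 1000 cells). Named genes are the gate genes, the 12 highest and 12 lowest within libraries by mean log2 ratio, the 10 highest and 10 lowest between libraries, and list genes. The members and lists were chosen with earlier results of these data known. Other settings tried were the gate at 10 or 20, thinning, stricter or no minimum, edgeR 4.0.16 TMM factors and pseudocount 10. Scripts ran in Python 3.11.15 (numpy 2.4.6, pandas 2.3.3, scipy 1.17.1) and R 4.3.3 and were tested on simulated data.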

Additional observations from a re-analysis of the deposited data

Results flagged for a closer look

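For 6 genes the ratio in members went past 1.5-fold in opposite directions in the 2 comparisons set side by side, with counting intervals on opposite sides of 1. None of these differences was tested, because each group is 1 library, and each pair includes the 23 WT and 18 CKO members of the normal diet. The proton pump subunit Atp6v1c1 stood at 0.560 times WT in CKO members on the high-fat diet and 1.99 times on the normal diet. Hspa5, an endoplasmic reticulum chaperone, stood at 0.605 and 1.68 times. Uqcr10, a subunit of respiratory complex III, stood at 2.07 and 0.507 times. Between diets, the lectin Clec10a stood at 0.537 times the normal-diet level in WT members and 2.81 times in CKO members. S100a6, a calcium-binding protein of monocytes, stood at 0.645 and 1.55 times, and Spp1 at 5.08 and 0.412 times. The normal-diet Spp1 values rest on 9 UMIs in WT members and 93 in CKO members. Most of the 93 came from 1 cell, as given above. Divided by the ratio of other macrophages, 3 of these 12 ratios changed sign: on the log2 scale Uqcr10 was at -0.00435 for CKO over WT on the high-fat diet, Clec10a at 0.50 for the diet ratio in WT and S100a6 at -0.15 for that in CKO.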

How the results depend on the processing

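No paired analysis was possible because each group is 1 library and the labels carry no replicate numbers; leaving out a replicate was not possible either. The share ratios between libraries stayed within their counting intervals under the other gates, depths and denominators, except that the high-fat over normal-diet ratio in WT was 9.42 without the Trem2 condition. The number of genes past 1.5-fold depends on the minimum. With at least 50 CPM and 50 UMIs, members over other macrophages gave 965 and 759 genes in the WT and CKO high-fat libraries and 1427 and 1396 on the normal diet in WT and CKO, where the reported counts were 1560, 1431, 2611 and 2603; with no minimum above 1 UMI the counts were 3386, 3871, 8823 and 8842. The same minima gave 854 and 3760 in place of 1516 for CKO over WT on the high-fat diet, 112 and 6527 in place of 513 on the normal diet, 501 and 7224 in place of 1290 for high-fat over normal diet in WT, and 580 and 8503 in place of 1335 in CKO. With 20 UMIs expected on both sides, a choice made after seeing the data, the counts were 795 and 688 within the WT and CKO normal-diet libraries, 285 for CKO over WT on the normal diet, and 370 and 550 for the diet comparison in WT and CKO. CKO over WT gave 238 genes on the high-fat diet relative to other macrophages and 111 on the normal diet after thinning, and TMM scaling gave 2146 for the diet comparison in CKO. Values past 1.5-fold that changed sign follow, on the log2 scale, and the cause was not tested. Divided by the ratio of other macrophages, CKO over WT on the high-fat diet was 0.46 for Gpnmb, 0.0756 for Lpl, 0.0242 for Plin2, 0.14 for Nceh1, 0.57 for Pparg, 0.0761 for Lars2, 0.21 for Neat1, 0.10 for Il31ra, -0.00435 for Uqcr10 and -0.0177 for the oxidative phosphorylation median. The diet ratio was then -0.28 in WT and -0.42 in CKO for Fabp4, 0.50 in WT for Clec10a and -0.15 in CKO for S100a6. Thinning gave -1.10 for Ccl8 (CKO over WT, high-fat diet) and -0.36 for the NRF2 median on the normal diet. Without the deepest member of each library, that median was -0.0514 and Hsp90aa1 was -0.15. Of the 69 named gene ratios between libraries, 22 more kept their sign but fell within 1.5-fold relative to other macrophages.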
